A study of Mus musculus with 15 samples.

Results

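Il10 encodes interleukin 10 (IL-10), the cytokine by which macrophages restrain their own inflammatory response, and Socs3 encodes a suppressor of cytokine signalling. These 2 genes were taken by symbol from the 10020 genes with exon values, and both were also among the 560 genes with whole-gene values. The RNA came from macrophages grown from the bone marrow of C57BL/6 mice of mixed sex in medium with M-CSF, the growth factor that drives macrophage differentiation. The cells were left unstimulated (0 min) or received lipid A, the membrane anchor of bacterial lipopolysaccharide and the ligand of Toll-like receptor 4, at 100 ng/ml for 15, 30, 60 or 120 min. Each culture time gave chromatin RNA (the pellet that holds nascent transcripts), nucleoplasmic RNA and cytoplasmic RNA, so that 15 libraries covered 3 fractions and 5 times with 1 library each. No library had a replicate, and a labelled time does not say whether the fractions came from the same plates.

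Secreted IL-10 binds a receptor made of the Il10ra and Il10rb products, the kinases Jak1 and Tyk2 phosphorylate Stat3, and Stat3 then drives genes that dampen inflammatory transcription. Socs3 is among those Stat3 targets and is also switched on by other cytokines. Its protein binds gp130 (encoded by Il6st), the shared receptor subunit of IL-6 and its relatives, and blocks the attached Jak kinases, while the IL-10 receptor is known to escape it. Messages of many such cytokines and feedback genes carry AUUUA elements in their 3′ untranslated regions, which are known to shorten the life of the message.

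Both genes were placed by the authors in class C of their chromatin classes, which held 98 genes, and in their expression group 1, which held 152. They differed in the authors' promoter type, which was CpG for Socs3 and LCG, an abbreviation the table does not spell out, for Il10. Class C held 57 genes of the CpG type and 41 of the LCG type. In the GENCODE annotation of GRCm38, Il10 lay on chromosome 1 on the plus strand with 5 exons and 178 codons, and Socs3 on chromosome 11 on the minus strand with 2 exons and 225 codons. The proportions of exon and intron therefore differ: introns made up 74.5% of the length of Il10 and 17.0% of that of Socs3.

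The 250 bases before the Socs3 start site are shown because the authors gave Socs3 the promoter type CpG and because Socs3 is a Stat3 target. The stretch over which the authors set that type is not known here. The bases come from the RefSeq promoter table of GRCm38.p6 (chr11:117969367-117969616, minus strand), with the STAT motif in capitals. The RefSeq start site lies upstream of the start of the GENCODE transcript used here for exons and the 3′ untranslated region. The window therefore leaves out the bases just before the GENCODE start.
Socs3 promoter: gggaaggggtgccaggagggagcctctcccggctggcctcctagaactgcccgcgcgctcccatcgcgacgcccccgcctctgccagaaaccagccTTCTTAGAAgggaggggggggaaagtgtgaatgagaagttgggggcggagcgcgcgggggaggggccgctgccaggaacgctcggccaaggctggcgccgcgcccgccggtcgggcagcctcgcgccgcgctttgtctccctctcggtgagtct
The window held 26 CpG dinucleotides, against a median of 6 over the 32851 promoter windows of the same length, and more than 90.4% of them. The STAT motif TTCNNNGAA, searched on both strands, matched once, as TTCTTAGAA at positions -154 to -146 from the RefSeq start site. The same letters occurred in 7.02% of all windows. A GC box (GGGCGG on either strand) matched once and occurs in 32.7% of windows. The letters of the NF-kappaB, AP-1 (TGANTCA), CRE (TGACGTCA) and TATA box (TATAAA) motifs were not in this window, and a match or its absence is a description of the letters alone.

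The 3′ untranslated regions were compared because AUUUA elements bear on how long a message lasts. That of Il10 was 706 bases long with 6 copies of this element, written ATTTA in DNA letters, or 8.50 per kb, against a median of 1.36 per kb over 9237 genes. Among 5852 genes with at least 700 bases, 1.25% had as many copies or more in the last 700 bases. That of Socs3 was 1474 bases long with 4 copies, or 2.71 per kb, of which 3 lay in the last 700 bases, a number reached by 19.1% of genes. The longer form TTATTTATT, which 4.14% of the 5852 genes had in the last 700 bases, was in neither region. The 30 bases of each region with the most copies (of equal windows, the richest in A and T) are printed from GRCm38, with ATTTA in capitals. The Il10 window is chr1:131024474-131024503 on the plus strand and the Socs3 window is chr11:117966130-117966159 on the minus strand.
Il10: aatattataattttacagtATTTAttattt
Socs3: atatATTTAtATTTAtactcagaaaagaaa

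The cultures expressed macrophage markers. All 8 macrophage genes checked, among them Csf1r and Adgre1, were listed, with summed levels of 1272 to 1932 RPKM in chromatin, 8641 to 11869 in nucleoplasmic and 1212 to 2637 in cytoplasmic RNA (RPKM is reads relative to exon length and library size). Of markers of other cells that can make IL-10, 1 of 5 B cell genes and 2 of 6 T cell genes were listed, with sums of at most 10.5 and 3.53 RPKM, and 0 of 4 mast cell and 0 of 5 dendritic cell genes. The T cell gene Lck was at 0.091 RPKM at 0 min and 3.24 at 120 min in cytoplasmic RNA, where it was called higher, with a log2 ratio of 2.66. Of 8 neutrophil genes 6 were listed, with sums of 3.27 to 7.19 RPKM in chromatin, 31.4 to 40.2 in nucleoplasmic and 30.9 to 67.8 in cytoplasmic RNA. Their part in the results was not tested, and fewer cells of a type cannot be told apart from less RNA per cell. Chromatin libraries held 38.8 to 52.3 M reads, nucleoplasmic 24.5 to 31.4 M and cytoplasmic 15.6 to 19.9 M. Whole reads were recovered from the RPKM values, so each value has an exact 95% interval that covers counting error only.

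The first question was when and in which fraction each message rose. Il10 was past 4-fold at 15 min in both nuclear fractions and in the cytoplasm at 30 min, and was highest in the nucleoplasm. Socs3 was past 4-fold at 15 min in all 3 fractions, went on rising in chromatin RNA to the last time, and was highest in the cytoplasm. A gene was called at a 4-fold ratio of RPKM + 0.5 to the 0 min library, which has no replicate check.

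In chromatin RNA, Il10 was at 2.35, 15.9, 17.2, 18.1 and 14.9 RPKM at 0, 15, 30, 60 and 120 min, from 141, 1084, 946, 971 and 752 exon reads. Most of the rise came within the first 15 min. The steps from 15 to 30 min (ratio 1.08, interval 0.992 to 1.18) and from 30 to 60 min (1.05, 0.964 to 1.16) were each within counting error. Over both steps together the level rose slightly: the intervals at 15 min (14.9 to 16.8 RPKM) and 60 min (17.0 to 19.3) did not overlap. The level at 120 min was 0.819 of that at 60 min (0.744 to 0.902). The highest level was 7.72 times that at 0 min (6.46 to 9.28).

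In nucleoplasmic RNA, Il10 was at 1.56, 15.5, 61.6, 41.3 and 29.7 RPKM, from 52, 635, 1999, 1318 and 1175 reads. Unlike in chromatin, the level went up again between 15 and 30 min, by 3.98 times (3.64 to 4.36), and then fell at both later steps. At 30 min it was 39.5 times that at 0 min (30.0 to 53.0), the largest ratio of Il10 in any fraction.

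In cytoplasmic RNA, Il10 was at 0.885, 2.01, 11.3, 14.4 and 5.98 RPKM, from 18, 44, 259, 342 and 155 reads. The 0 min value rests on few reads, and the level at 15 min was 2.27 times as high (1.29 to 4.18), under the 4-fold call. The ratio was highest at 60 min, at 16.3 (10.1 to 27.8), and the level at 120 min was 0.415 of that at 60 min (0.341 to 0.504). The median gene had a ratio of 0.548 at that step.

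**Figure D1:**
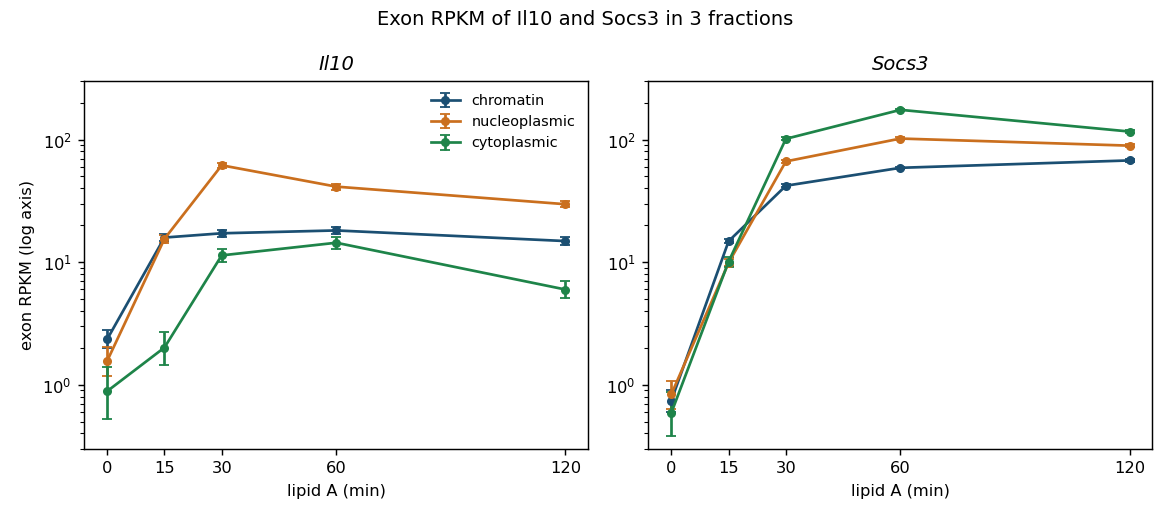
Exon RPKM (log axis) of Il10 (left) and Socs3 (right) against minutes of lipid A, with 1 line per fraction, 1 library per point and exact 95% counting intervals as bars. The nucleoplasmic line of Il10 peaks at 30 min and lies above its cytoplasmic line at every time, while the cytoplasmic line of Socs3 is the highest from 30 min on.

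Socs3 in chromatin RNA was at 0.742, 14.8, 42.0, 58.8 and 67.5 RPKM, from 93, 2111, 4821, 6568 and 7131 reads. Every step was upward with an interval above 1, from a ratio of 19.9 (16.2 to 24.8) in the first 15 min to 1.15 (1.11 to 1.19) between 60 and 120 min. At 120 min the level was 90.9 times that at 0 min (74.1 to 113).

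In nucleoplasmic RNA, Socs3 was at 0.835, 9.87, 66.3, 101.8 and 89.1 RPKM, from 58, 845, 4485, 6783 and 7362 reads. The highest level, at 60 min, was 122 times that at 0 min (94.2 to 161). In cytoplasmic RNA it was at 0.589, 10.1, 101.3, 174.6 and 116.2 RPKM, from 25, 461, 4822, 8659 and 6283 reads. The level at 60 min was 297 times that at 0 min (201 to 458), and the later fall to 0.665 of it (0.644 to 0.687) was smaller than the median of all genes at that step. When each library was rescaled by the median ratio of all genes, Socs3 was highest at 120 min in these 2 fractions also, so its fall between 60 and 120 min depends on the scaling. That median lay between -0.47 and -0.11 (log2) in chromatin, between -0.47 and -0.07 in nucleoplasmic and between -0.49 and 0.39 in cytoplasmic RNA, and the times of the Il10 peaks and of the first 4-fold values did not move with it.

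Both genes were called higher in all 3 fractions, as were 3.95% of the genes tested in all 3. Over all genes, 6.51% were called higher in chromatin RNA at any time, 4.84% in nucleoplasmic and 4.48% in cytoplasmic RNA. At 15 min the shares were 0.822%, 0.343% and 0.238%, and Socs3 belonged to all of these and Il10 to both nuclear ones.

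The balance of the 2 messages turned over during the response. At 0 min the Socs3 level was 0.316 of the Il10 level in chromatin RNA (0.241 to 0.414) and 0.535 in nucleoplasmic RNA (0.361 to 0.793), while in the cytoplasm the interval of the ratio (0.666, 0.349 to 1.30) included 1. At 15 min Socs3 was already 5.02 times as high as Il10 in the cytoplasm (3.68 to 7.01) but not in the nuclear fractions, where the ratios were 0.934 (0.867 to 1.01) in chromatin and 0.638 (0.575 to 0.708) in the nucleoplasm. At 120 min the ratio of Socs3 to Il10 was 4.55 in chromatin, 3.004 in nucleoplasmic and 19.4 in cytoplasmic RNA (16.6 to 22.9).

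The second question was how each message was divided between fractions. Il10 was lower in the cytoplasm than on chromatin at every time, and Socs3 was higher there from 30 min on. The cytoplasmic level of Il10 was 0.377, 0.127, 0.660, 0.794 and 0.402 of its chromatin level at 0, 15, 30, 60 and 120 min. At 15 min, when its chromatin level was already near its highest, 0.433% of 8307 genes had a lower cytoplasmic to chromatin difference. For Socs3 the same ratios were 0.793, 0.681, 2.41, 2.97 and 1.72. From 30 min on Socs3 stood slightly above the median gene in this ratio, with 57.6% to 64.1% of genes below it, and Il10 stayed among the lowest, with 6.81% to 8.55% below it.

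**Figure D2:**
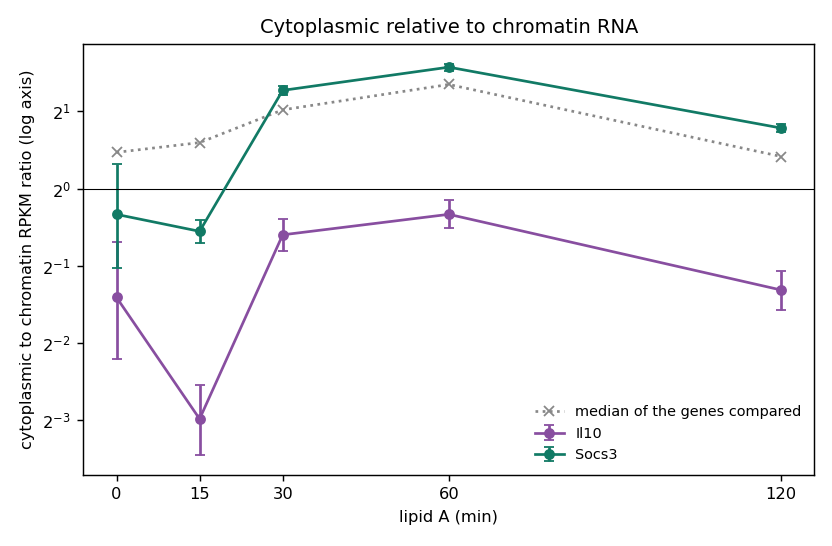
Ratio of cytoplasmic to chromatin exon RPKM (log axis) against minutes of lipid A for Il10, Socs3 and the median of 8307 genes (the median from RPKM + 0.5), with 95% counting intervals as bars. Il10 lies below 1 and below the median at all 5 times with its lowest ratio, 0.127, at 15 min, and Socs3 crosses the median between 15 and 30 min.

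The mean fraction differences were tested with limma on log2(RPKM + 0.5) over 9441 genes, with time as a term and the 5 times as the values of a fraction. Il10 was lower in cytoplasmic than in chromatin RNA by limma, with a log2 difference of -1.18 (SE 0.281, adjusted p = 5.87e-04), where 5.14% of genes were called lower and 40.7% higher. The call was lost without the 15 min libraries, where the difference was -0.80, short of 2-fold, and in a limma fit without the time term (adjusted p = 0.252). Il10 was also lower in cytoplasmic than in nucleoplasmic RNA by limma, by -1.87 (SE 0.281, adjusted p = 4.39e-06), where 16.6% of genes were called lower and 4.66% higher, and this call too was lost without the time term (adjusted p = 0.109). Its nucleoplasmic to chromatin difference of 0.69 (limma adjusted p = 0.0289) was short of 2-fold, where 44.1% of genes were called higher and 2.28% lower. Some other listed genes were low in the cytoplasm too. Against chromatin the log2 differences were -1.11 for Il27, -0.79 for Il6 and -0.42 for Clcf1. They were -0.13 for Lif, 0.14 for Ebi3 and 0.28 for Osm. Against the nucleoplasm these 6 cytokine genes ran from -1.31 (Ebi3) to -0.21 (Lif). The 8 macrophage genes ran from -1.45 (Mertk) to 0.57 (Lyz2) against chromatin, and from -3.46 (Itgam) to -1.83 (Cd68) against the nucleoplasm.

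No Socs3 difference between fractions was called. The log2 differences by limma were 0.58 for cytoplasmic against chromatin RNA (95% interval 0.09 to 1.06, adjusted p = 0.0295), 0.28 for nucleoplasmic against chromatin (-0.21 to 0.76, adjusted p = 0.284) and 0.30 for cytoplasmic against nucleoplasmic (-0.18 to 0.78, adjusted p = 0.302). The sign of both Socs3 differences from chromatin, and of the Il10 difference between nucleoplasm and chromatin, flipped when libraries were scaled to the same median, because the median gene was 0.88 higher (log2) in nucleoplasmic and 0.76 higher in cytoplasmic than in chromatin RNA. The Il10 difference between cytoplasm and chromatin kept its sign and call under that scaling.

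The third question was how much of each transcript still held intron. Reads outside exons were the whole-gene reads less the exon reads. In chromatin RNA the intron level of Il10 was 1.21, 9.20, 4.46, 8.90 and 4.62 RPKM at 0, 15, 30, 60 and 120 min, from 212, 1840, 718, 1395 and 685 reads. The exon level changed little between 15 and 60 min, from 15.9 to 18.1 RPKM. The intron level fell to 0.484 between 15 and 30 min (0.444 to 0.528) and rose between 30 and 60 min (ratio 1.997, 1.82 to 2.19). It fell again to 0.519 by 120 min (0.473 to 0.570). Each of these intron steps lay outside counting error.

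The nucleoplasmic libraries showed the same order for Il10, at 0.236, 2.50, 0.948, 2.48 and 1.14 RPKM of intron. The share of Il10 reads outside exons in chromatin RNA was accordingly 60.1%, 62.9%, 43.1%, 59.0% and 47.7%. In the nucleoplasm it was 32.1% at 15 min (29.1 to 35.2) and 4.31% at 30 min (3.48 to 5.27), the time of the nucleoplasmic exon peak. In the cytoplasm it rested on 2 to 7 reads a library. The low intron point at 30 min came from 1 library in each nuclear fraction, and no second library of that time was analysed here.

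Few other genes had the intron course of Il10 in these libraries. Only the 560 genes with whole-gene values, all in the authors' classes, could be compared. Of these, 207 had 50 intron reads or more at each stimulated time in chromatin RNA and lengths close to the reference. In 2 of the 207 (0.966%), Il10 among them, chromatin intron levels were lower at 30 than at 15 and 60 min and lower at 120 than at 60 min. Il10 was the only gene of the 207 in which each of these 3 steps was at least 1.5-fold. The median gene of the 207 had ratios of 2.04, 1.36 and 1.06 at the same steps. This shape was defined after the Il10 values were seen, so the count describes these libraries and is no test.

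The single intron of Socs3 rose from 0 to 60 min in chromatin RNA with no dip, and it made up less and less of the transcript after 15 min. In chromatin RNA it was at 0.351, 12.8, 29.1, 35.6 and 32.8 RPKM, from 9, 374, 684, 814 and 709 reads, and the last step lay within counting error (0.921, 0.832 to 1.02). The intron level relative to the exon level was 0.866 at 15 min (0.774 to 0.968) and went down at each later time, to 0.486 at 120 min (0.449 to 0.525). At 15 min 82.6% of 218 other genes had a lower ratio. In nucleoplasmic RNA the intron was at 0.352, 3.83, 9.40, 11.4 and 7.05 RPKM, and its level relative to the exons was 0.388 at 15 min (0.298 to 0.498), 0.142 at 30 min (0.118 to 0.169) and 0.079 at 120 min (0.065 to 0.095). In the cytoplasm at most 12 reads lay outside exons, beside 6283 in them, at 120 min.

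**Figure D3:**
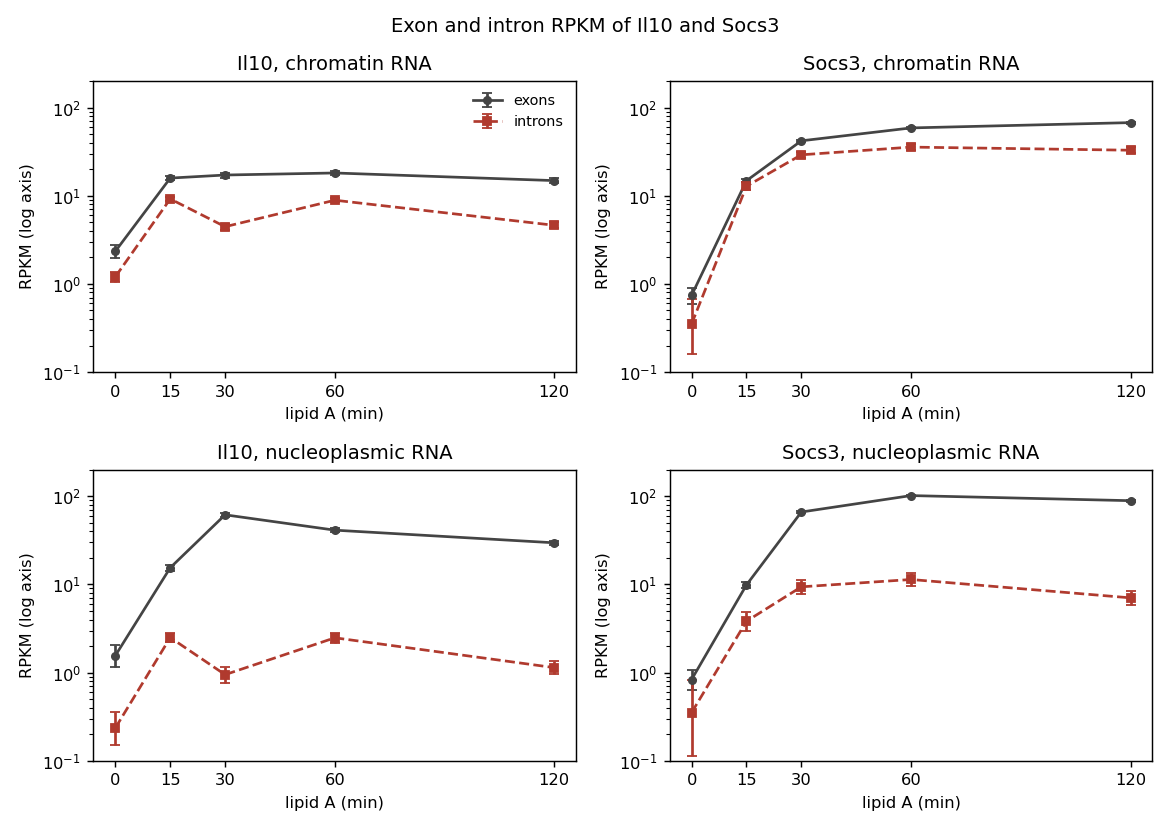
Exon (circles, solid) and intron (squares, dashed) RPKM on a log axis against minutes of lipid A, for Il10 (left) and Socs3 (right) in chromatin (top) and nucleoplasmic (bottom) RNA, with 1 library per point and 95% counting intervals as bars. The Il10 intron line dips at 30 min in both fractions, to 4.46 RPKM in chromatin and 0.948 in the nucleoplasm, while the Socs3 intron line in the nucleoplasm falls further below its exon line with time, to 7.05 RPKM beside 89.1 at 120 min.

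The genes around the loop were counted from lists of the pathway. Excluding Il10 and Socs3, 21 of 59 tested list genes were called higher and 2 lower in chromatin RNA, 18 and 2 of 61 in nucleoplasmic RNA and 18 and 1 of 61 in cytoplasmic RNA. Over all genes tested, 6.51%, 4.84% and 4.48% were called higher and 3.91%, 2.81% and 1.88% lower in the same fractions, so the counts of list genes called lower were near those shares. Many list genes are inducible genes that were named with earlier results of these data known, so these shares are no evidence that the pathway stands apart. All values below are chromatin RPKM unless another fraction is named.

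Of the 5 genes of the IL-10 receptor and its signalling, 0 were called in any fraction, a count that says little beside the 6.51%, 4.84% and 4.48% of all genes called higher in chromatin, nucleoplasmic and cytoplasmic RNA. Il10ra, the ligand-binding chain, was at 15.1, 35.3, 37.4, 23.9 and 45.3 RPKM from 0 to 120 min, and Il10rb, the shared chain, at 29.8, 30.3, 27.7, 24.4 and 20.3. The kinase Jak1 was at 14.0 at 0 min and 21.2 at 120 min, Tyk2 at 6.04 and 22.2, and Stat3, the transcription factor of the pathway, at 7.56 and 24.0. After rescaling by the median ratio 1 of the 5 passed 4-fold in chromatin and 1 in nucleoplasmic RNA.

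Of 7 listed SOCS family genes, Socs3 included, 4 were called higher in chromatin RNA, 3 in nucleoplasmic and 4 in cytoplasmic RNA, and 0 lower. Over all genes tested, 6.51%, 4.84% and 4.48% were called higher and 3.91%, 2.81% and 1.88% lower in the same fractions. Socs3 was the earliest of the SOCS family genes called. Socs1, which blocks Jak kinases downstream of interferon receptors, was at 0.740 RPKM at 60 min and 8.78 at 120 min. Cish, the family's founding member, was at 0.461 at 30 min, 4.92 at 60 min and 5.74 at 120 min. Socs7 was at 1.21 at 0 min and 6.56 at 120 min. In the cytoplasm at 120 min Socs1 was at 18.0 RPKM and Cish at 13.7, both below the 116.2 of Socs3. Socs4, Socs5 and Socs6 were not called in any fraction. Of the partners through which a SOCS box recruits a ubiquitin ligase, 4 were tested in chromatin and 5 in each other fraction. Of these partners 0 were called, a count that says little beside the shares over all genes.

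Of the 6 listed cytokines that signal through gp130 or Stat3, all 6 were called higher in chromatin and nucleoplasmic RNA and 3 in cytoplasmic RNA. Over all genes tested, 6.51%, 4.84% and 4.48% were called higher in chromatin, nucleoplasmic and cytoplasmic RNA. Il6 was at 0.246, 2.25, 7.72 and 82.1 RPKM at 15, 30, 60 and 120 min, and Il27, a subunit of interleukin 27, at 0.623, 2.99, 38.5 and 95.5. Lif and Clcf1 were highest at 60 min, at 3.99 and 3.13. Osm, which encodes oncostatin M, was at 0.969, 3.83 and 5.78 at 0, 15 and 30 min, its highest time. Ebi3 was at 3.97 at 0 min, 12.5 at 30 min and 19.0 at 60 min. In chromatin RNA Socs3 thus passed 4-fold before all 6.

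The receptors and kinases that Socs3 restrains went in both directions, beside 3.91%, 2.81% and 1.88% of all genes called lower in chromatin, nucleoplasmic and cytoplasmic RNA. Il6ra, the IL-6 binding chain, was called lower in all 3 fractions. Unstimulated cells held 13.6 RPKM, and the level was 4.88 at 60 min and 1.27 at 120 min. The kinase gene Jak2 was called higher in all 3, from 3.84 to 52.5 and 78.9. Lifr was called lower in nucleoplasmic RNA, from 5.47 to 0.921 RPKM at 120 min. After rescaling by the median ratio, Lifr in nucleoplasmic and Il6ra in cytoplasmic RNA were short of 4-fold, and Il6ra stayed past it in both nuclear fractions. The gp130 gene Il6st was at 22.1 at 0 min and 7.40 at 120 min, short of 4-fold.

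Of 10 tested genes that IL-10 is known to induce in macrophages, 7 were called higher in chromatin RNA, among them Socs3, and 0 lower. Of 11 tested in each other fraction, Socs3 included, 5 were called higher in nucleoplasmic and 6 in cytoplasmic RNA, and 0 lower. The shares of all genes called higher were 6.51% in chromatin, 4.84% in nucleoplasmic and 4.48% in cytoplasmic RNA. Those called lower were 3.91%, 2.81% and 1.88%. Dusp1, a phosphatase of MAP kinases, was at 8.29 RPKM at 0 min and 131 at 15 min. Zfp36, which binds AU-rich elements, was at 16.2 and 116 RPKM at the same times. Il1rn, the IL-1 receptor antagonist, was at 0.724 at 0 min and 58.2 at 120 min. The transcriptional regulators Bcl3 (1.11 at 0 min, 10.8 at 60 min), Nfil3 (0.731 and 6.65) and Etv3 (4.99 and 20.1) were called as well. Sbno2, Il4ra and Hmox1 were not called in any fraction, and the Hmox1 level was lower at 120 min (15.3) than in unstimulated cells (34.2). Ddit4, tested only outside chromatin, was not called either. In the cytoplasm Dusp1 was at 2.91 RPKM at 0 min and 64.4 at 15 min, and Zfp36 at 15.4 and 201.6. Il10 was at 2.01 RPKM there at 15 min, and any part of IL-10 in these changes was not tested.

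Of 20 regulators of Il10 transcription, 4 were called higher and 1 lower in chromatin RNA, beside 6.51% and 3.91% of all genes, so the 1 lower call is near the share over all genes. Cebpb was at 0.564 RPKM at 0 min and 5.18 at 15 min, Prdm1 was highest at 60 min (12.2), and the NF-kappaB subunit genes Nfkb1 and Rel were at 46.3 and 42.8 at 60 min. Maf, a known activator of Il10, was called lower, from 42.3 to 8.57 at 60 min, but was not past 4-fold after rescaling. In cytoplasmic RNA Maf was at 70.8, 80.0, 86.4, 74.1 and 34.6 RPKM and was not called.

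**Figure D4:**
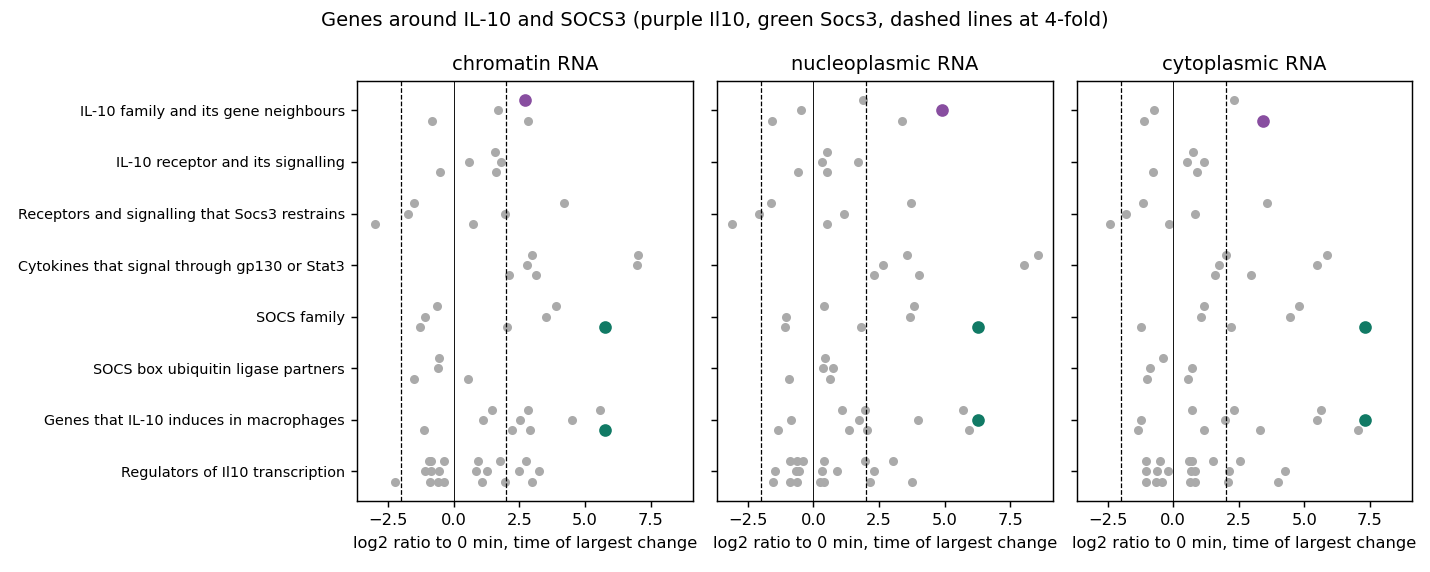
Log2 ratio to 0 min at the time of largest change for each tested gene (1 dot per gene) of 8 lists of the pathway, in chromatin, nucleoplasmic and cytoplasmic RNA, with dashed lines at 4-fold. Il10 (purple) and Socs3 (green) lie beyond the upper line in every panel, and the 5 genes of the IL-10 receptor and its signalling lie between the lines.

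The chromosomal neighbours of the 2 genes were read in RefSeq order. Next to Il10, Mapkapk2, which encodes the kinase MK2, was at 14.9, 25.5, 109.8, 69.9 and 69.1 RPKM in chromatin RNA and was called higher there and in cytoplasmic RNA. On the other side Il19, a member of the IL-10 family, was at most at 1.16 RPKM in chromatin RNA and reached 5.09 in nucleoplasmic RNA at 120 min. Next to Socs3, Pgs1 was at 4.50, 5.86, 9.05, 22.7 and 29.003 RPKM, and Tha1, on the other side, at most at 1.81.

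Finally, the genes with courses most like those of Il10 and Socs3 were named by Pearson correlation of log2(RPKM + 0.5), centred within each fraction, over the 15 libraries. Those most like Il10 were Cxcl1 (r = 0.976), Dusp2 (0.967), Rgs1 (0.966), Tnf (0.966) and Cxcl2 (0.961). Those most like Socs3 were Ccl4 (0.988), Gadd45b (0.988), Ccl3 (0.985), Ccrl2 (0.981) and Ccl7 (0.980). Socs3 ranked 15 among the genes most like Il10 (r = 0.928), and Il10 ranked 33 among those most like Socs3. The points share libraries and most induced genes rise together, so these values are descriptions, and over the 5 chromatin libraries alone 1 of the 5 names was the same for each gene. Tnf, for example, was at 20.6, 413.8, 1158, 572.1 and 552.3 RPKM in chromatin RNA, and its nucleoplasmic level, like that of Il10, was highest at 30 min, at 3174 RPKM.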

How the data were processed

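The authors deposited RPKM values for 10020 genes over exons and for 560 genes over the whole gene, the latter read as including introns from the lengths found here. Reads were aligned to mm9 with TopHat, per the submitters' processing notes; the version, the counting tool, the annotation and any use of strand in counting were not given in the sources used here, and libraries were strand-specific per the labels' protocols. RPKM is relative to the library, so amounts per cell were not measured. Another 3 columns of values matched no sample and were not used.

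For each gene the length that turned its 15 values into whole reads (tolerance 0.02 reads) was found for 10019 of 10020 genes by exons and all 560 whole genes, and these reads gave exact 95% conditional binomial intervals of ratios. The pseudocount was 0.5 RPKM, and the tested genes reached 1 RPKM in 1 or more libraries of a fraction (3 or more libraries for limma 3.58.1 in R 4.3.3, with a trended prior and Benjamini-Hochberg adjustment, called at adjusted p under 0.05 and 2-fold). With the time term in the limma fit, changes shared by the fractions over time were not part of the error. The error was how unevenly the gaps between fractions ran from time to time, and the times are not replicates. Intervals were computed with scipy 1.17.1, and both call rules were tested on simulated data. The genes named were Il10 and Socs3, list genes past 4-fold (up to 4 a list and fraction), 11 fixed pathway genes and the 5 most alike, with the nearest neighbours and a few other list genes added after their values were seen. The members and lists were chosen with earlier results of these data known. Sequences are from GRCm38 (RefSeq and GENCODE), and no mm9 coordinate is given. Alternatives covered the pseudocount, scaling, filter, fold, time term and each time left out.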

Additional observations from a re-analysis of the deposited data

How the results depend on the processing

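Of 171 values recomputed for the main results, 134 kept their direction and call within the margin set for them. Part of these could not have changed, so the count is no measure of how firm the results are. Leaving out a time other than the peak returns the same highest ratio, and dropping the filter on low values cannot change a 4-fold call. The log2 ratios of Il10 and Socs3 to 0 min stayed positive under every alternative run. The highest log2 ratio of Socs3 depended on the pseudocount because its 0 min level is near it: with 0.1 RPKM it was 6.33 in chromatin, 6.77 in nucleoplasmic and 7.99 in cytoplasmic RNA, and with 1 RPKM 5.30 in chromatin and 5.81 in nucleoplasmic RNA, against 5.77, 6.26 and 7.33. Rescaling by the median ratio gave 3.18 for Il10 and 6.11 for Socs3 in chromatin RNA, against 2.71 and 5.77. Whole-gene values gave 3.98 for Il10 in nucleoplasmic and 2.50 in cytoplasmic RNA, against 4.91 and 3.43, since they add intron length. Leaving out each time gave 4.34 to 4.91 for Il10 in nucleoplasmic and 6.74 to 7.33 for Socs3 in cytoplasmic RNA, by construction where the peak time was left out.

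Pathway list genes called higher in chromatin RNA numbered 32 at 2-fold, against 21. Those called lower (2, 2 and 1 in chromatin, nucleoplasmic and cytoplasmic RNA) numbered 4 in each fraction with 0.1 RPKM, 1, 1 and 0 after rescaling, 9, 9 and 10 at 2-fold, and 1 in nucleoplasmic RNA with 1 RPKM. With each time left out they numbered 1 to 2, 0 to 2 and 0 to 1, lowest without the 120 min libraries (in chromatin RNA also without 60 min). Over all genes, leaving out 120 min brought the genes called higher from 578, 451 and 414 to 285, 202 and 249, and those called lower from 347, 262 and 174 to 122, 12 and 2. Genes called lower numbered 1028, 631 and 404 with 0.1 RPKM, 159, 152 and 95 with 1 RPKM, and 161, 109 and 70 after rescaling, so losses of weak genes rest on these choices. At 2-fold, 1413, 972 and 1225 genes were called higher and 2971, 2099 and 1728 lower.

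The time label served as the block that pairs fractions, since no sample had a replicate number to pair by. Without this replicate block the Il10 differences by limma stayed at -1.18 (adjusted p = 0.252) and -1.87 (adjusted p = 0.109), and both calls were lost because the changes with time then count as error. Leaving out each time gave -1.39 to -0.80 for Il10 between cytoplasm and chromatin. With libraries scaled to the same median, the difference from chromatin was -0.17 for Il10 in the nucleoplasm, -0.58 for Socs3 in the nucleoplasm and -0.22 for Socs3 in the cytoplasm, all reversed in sign. Over all genes that scaling gave 1241 higher and 1017 lower in nucleoplasmic than in chromatin RNA (4160 and 215 as reported), and 1429 and 1696 in cytoplasmic than in chromatin RNA (3845 and 485). With 1 RPKM, 131 genes were lower in nucleoplasmic than in chromatin RNA, and with 0.1 RPKM 687 were higher in cytoplasmic than in nucleoplasmic RNA (440 as reported). Reference lengths moved the share of Socs3 chromatin reads outside exons to 13.4%, 12.005% and 10.04% at 30, 60 and 120 min, from 12.4%, 11.03% and 9.04%. Over the 5 chromatin libraries alone, 1 of the 5 genes most like Il10 and 1 of those most like Socs3 were the same. Depth limits the cytoplasmic Il10 values most, with 18 reads at 0 min.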
